A study of Mus musculus with 11 samples.

Results

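The cytosolic ribosomal protein genes encode the proteins of the large (Rpl and Rplp genes) and small (Rps genes and Rpsa) subunits of the ribosome that translates nuclear-encoded messages. They were taken as every array probe, controls left out, whose accession belongs to a mouse gene symbol of these families in RefSeq, without pseudogenes and without the Rps6k kinases. This gave 75 genes, 46 of the large and 29 of the small subunit, among 22264 genes and unnamed transcripts (items) tested. The naming rule uses no measured value, though it was set with earlier results of these data known. All 75 genes were above the array's background on all 11 arrays.

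RNA from the livers of 11 untreated male mice was profiled, with a 1-colour Agilent array for each mouse. The groups were 4 mice labelled β-catΔEx3:Myc, 3 labelled β-catΔEx3 and 4 wild-type (WT) mice. β-catΔEx3 denotes β-catenin without the stretch encoded by exon 3, which normally marks the protein for degradation, and the first group carries Myc as well. The series describes its samples as coming from livers with tumours, and its stated purpose is the study of hepatoblastoma, a liver cancer of young children. All groups shared a strain, mainly B6SJL with a small part of 129S6, and an age range of 22 to 40 days. The age of the individual mouse was given for the 3 arrays of slide 4 only, at 29 days for β-catΔEx3:Myc, 30 days for β-catΔEx3 and 31 days for WT. The promoter or Cre line behind each change, and whether tumour or neighbouring tissue was taken, are not given in the sources used here.

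Ribosomal protein messages make up one of the most abundant transcript classes of a growing cell. In mammals many of them begin with a C and a short run of pyrimidines, the terminal oligopyrimidine (TOP) motif, through which mTORC1 adjusts their translation to growth signals. Myc is known to raise ribosome production at several steps, from ribosomal RNA transcription to ribosomal protein genes, and one of its preferred DNA sequences is the E-box CACGTG.

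The start regions of 5 genes are shown because Rpl12, Rps7 and Rps18 had the largest folds in these livers and Rps6 and Rps2 stood apart from the rest. Each stretch runs from 60 bases before the annotated start to 25 bases from the start on, as RefSeq gives it for the build GRCm38.p6, read 5′ to 3′ on the strand of the gene. Capitals mark the longest run of at least 5 C or T letters counted from its first C and starting within 10 bases of the annotated start.
Rpl12, chr2:32961652-32961736, plus strand: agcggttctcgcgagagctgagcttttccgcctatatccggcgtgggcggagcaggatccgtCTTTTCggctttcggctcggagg
Rps7, chr12:28635929-28636013, minus strand: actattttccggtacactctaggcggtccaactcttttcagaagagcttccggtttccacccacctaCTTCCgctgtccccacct
Rps18, chr17:33955641-33955725, minus strand: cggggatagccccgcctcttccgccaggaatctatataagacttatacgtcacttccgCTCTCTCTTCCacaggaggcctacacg
Rps6, chr4:86857343-86857427, minus strand: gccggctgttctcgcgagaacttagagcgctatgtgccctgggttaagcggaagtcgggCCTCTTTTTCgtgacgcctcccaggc
Rps2, chr17:24720003-24720087, plus strand: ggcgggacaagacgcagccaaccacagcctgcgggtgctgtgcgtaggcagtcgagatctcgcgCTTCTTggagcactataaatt
All 5 stretches hold such a run, including that of Rps2, whose brighter probe did not rise. Start regions were at hand for 55 of the 75 genes, and 32 of them (58.2%) held a run, against 32.6% of the 27025 genes with a start region in the table. In the 300 bases around the start, CACGTG, which reads the same on both strands, was found for 6 of the 55 genes (10.9%) and for 8.09% of all genes. A match describes the letters and is no evidence of regulation. The median log2 fold change (log2FC) over WT of the genes with and without CACGTG was 0.76 and 0.72 in β-catΔEx3:Myc livers, and 0.54 and 0.56 in β-catΔEx3 livers. For the genes with and without a pyrimidine run it was 0.75 and 0.65 in β-catΔEx3:Myc livers, and 0.58 and 0.51 in β-catΔEx3 livers, and none of these differences was tested.

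Most ribosomal protein genes were moderately higher in both mutant groups than in WT livers, to nearly the same degree in both subunits. In β-catΔEx3:Myc livers 68 of the 75 genes were higher than in WT livers and none was lower at an adjusted p below 0.05, beside 24.9% of all items called higher and 17.3% called lower. Their median log2FC was 0.72 (1.65-fold), and that of all items was 0.13. In β-catΔEx3 livers 52 of the 75 were higher and none was lower, beside 21.8% called higher and 15.4% called lower of all items. The median log2FC was 0.57 (1.49-fold), and that of all items was 0.10. Every mutant array lay above every WT array for 70 genes in β-catΔEx3:Myc livers and 58 in β-catΔEx3 livers, beside 24.5% and 25% of all items. These counts come from limma fits to all items with Benjamini-Hochberg adjustment, and the comparisons share their WT arrays. In whole liver a larger share of cells with a high level and more of this RNA per cell cannot be told apart.

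The arrays lay on 4 slides, and slide 1 held WT replicates 1 to 3 alone, so that group and slide are largely tied. With slide as a block the comparisons with WT rest on WT replicate 4, and only Rpl12 stayed called in each, beside 4.23% of all items called higher in β-catΔEx3:Myc and 4.25% in β-catΔEx3 livers. The blocked median log2FC was 0.71 for β-catΔEx3:Myc livers, with all 75 genes above 0, and 0.52 for β-catΔEx3 livers, with 72 above 0. Within slide 4, which held 1 array of each group, the median was 0.70 for β-catΔEx3:Myc and 0.52 for β-catΔEx3 livers. The count in β-catΔEx3 livers also rested on single arrays: 31 genes were called higher without WT replicate 2, 33 without WT replicate 3 and 23 without β-catΔEx3 replicate 1, beside 16.6%, 17.7% and 15.3% of all items.

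Across arrays the genes moved as a block. The median of the 75 differences from the WT mean was 0.59, 0.96, 0.63 and 0.71 on β-catΔEx3:Myc replicates 1 to 4. It was 0.79, 0.38 and 0.54 on β-catΔEx3 replicates 1 to 3, and 0.15, -0.07, -0.08 and 0.00 on WT replicates 1 to 4. All 7 mutant arrays lay above all WT arrays, and the mutant groups overlapped, with β-catΔEx3:Myc replicate 2 the highest and β-catΔEx3 replicate 2 the lowest of the mutant arrays. Single genes followed the mean of the others closely, with a correlation over 0.9 across the 11 arrays for 59 of the 75 genes. The median correlation over the 2775 pairs of genes was 0.91, and 0.70 after group means were removed. All these points share arrays and scaling.

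**Figure D1:**
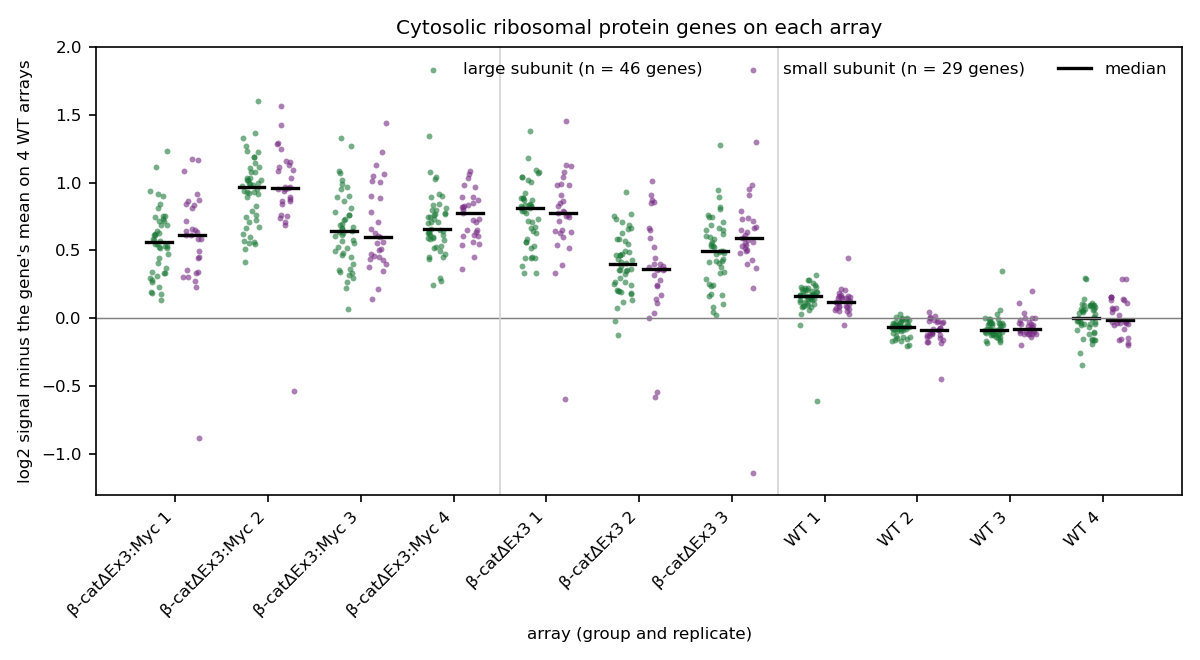
Log2 signal of each ribosomal protein gene minus its own mean on the WT arrays (y axis) on each of the 11 arrays (x axis), with green points for 46 large subunit genes, purple points for 29 small subunit genes and black bars for medians. The mutant arrays lie above the WT arrays with similar medians for both subunits, and the purple points near and below -0.5 on mutant arrays are Rps2 and, on β-catΔEx3 replicate 2, also Rps6.

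The subunits were compared directly because the ribosome needs their proteins in equal number. Of the 46 large subunit genes, 40 were higher in β-catΔEx3:Myc than in WT livers, with a median log2FC of 0.71 that ranged from 0.34 to 1.36. Of the 29 small subunit genes, 28 were higher, with a median of 0.75 and a range of -0.02 to 1.30. In β-catΔEx3 livers 32 of 46 large subunit genes were higher (median 0.57, range 0.11 to 1.20), and 20 of 29 small subunit genes (median 0.57, range -0.77 to 1.20). The mean of the large minus the mean of the small subunit genes, each gene relative to WT, was -0.03 ± 0.02 (SD, n = 4) on β-catΔEx3:Myc arrays, -0.01 ± 0.06 (SD, n = 3) on β-catΔEx3 arrays and 0.00 ± 0.02 (SD, n = 4) on WT arrays. The largest such difference on any array was -0.07, on β-catΔEx3 replicate 3.

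**Figure D2:**
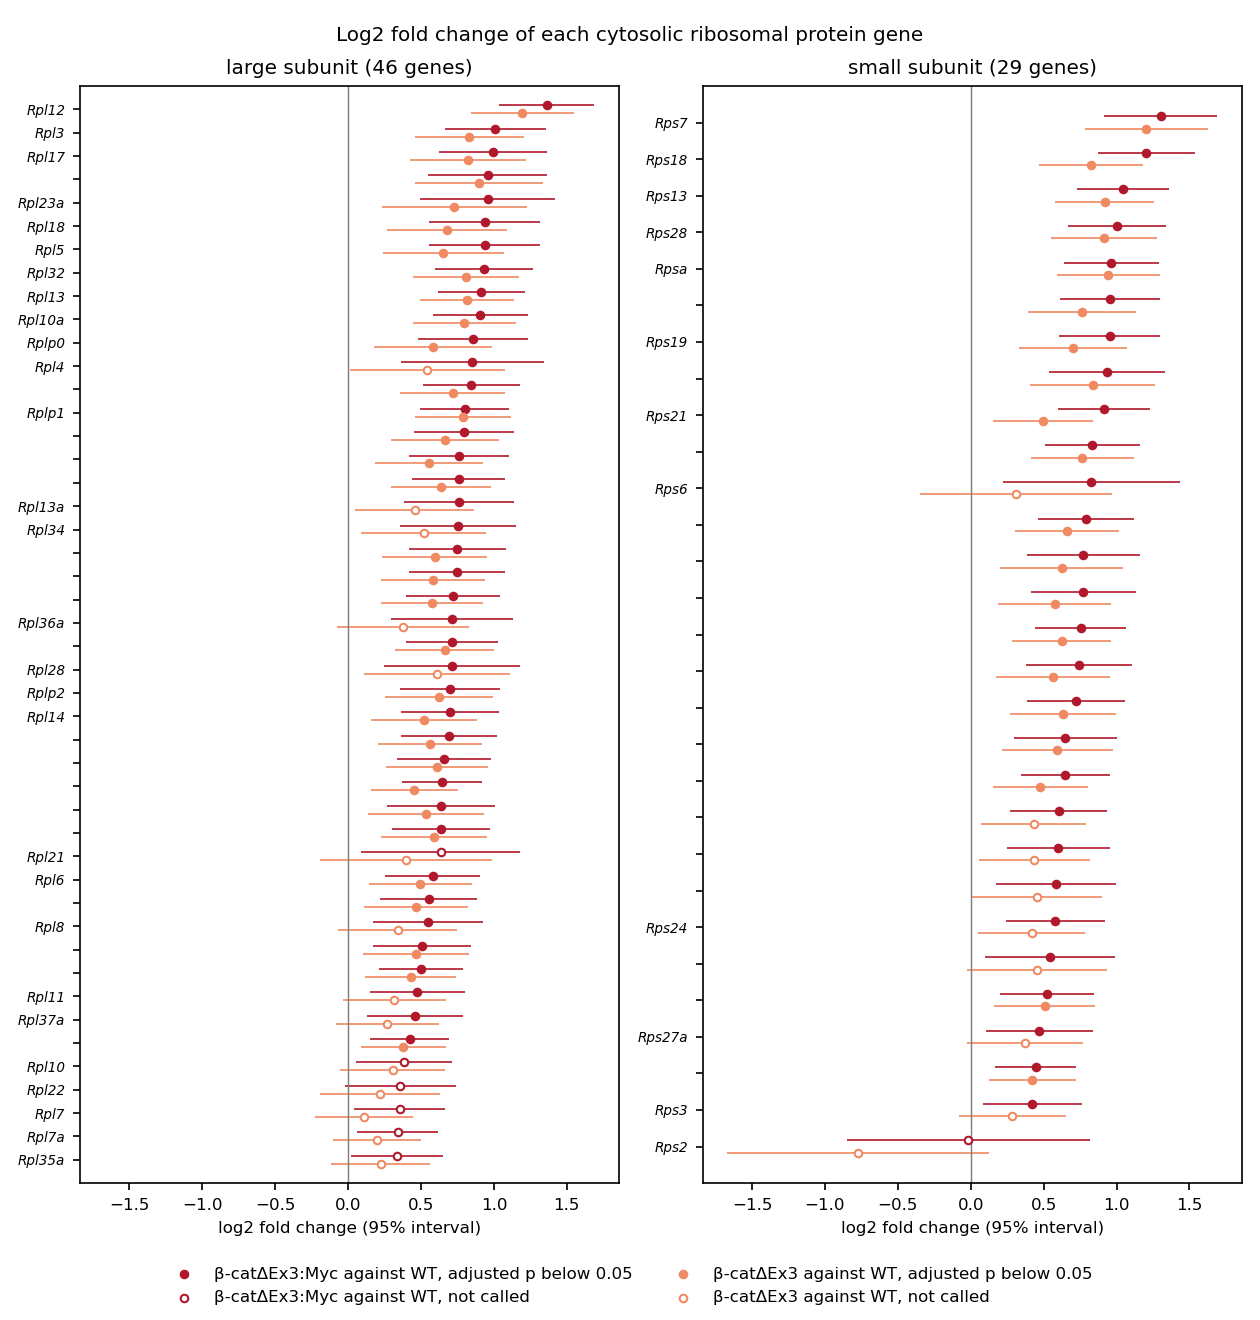
Log2 fold change of every ribosomal protein gene (x axis, with the 95% interval of the limma fit) in β-catΔEx3:Myc livers (dark red) and β-catΔEx3 livers (orange) against WT livers, sorted by the dark red value within the large subunit (left) and the small subunit (right). Filled points passed an adjusted p of 0.05, and genes described in the text are labelled. Values spread continuously from Rpl12 and Rps7 at the top, and Rps2 stands alone at the bottom.

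Rpl12, which sits at the base of the stalk where translation factors dock, had the largest fold in β-catΔEx3:Myc livers. Its log2 signal over the array's upper quartile was 9.09, 9.47, 9.13 and 9.20 on the β-catΔEx3:Myc arrays, 9.24, 8.79 and 9.14 on the β-catΔEx3 arrays, and 8.03, 7.85, 7.82 and 7.75 on the WT arrays. Every mutant array was above every WT array. It was 2.57-fold higher in β-catΔEx3:Myc livers (log2FC 1.36 ± 0.15, limma adjusted p = 9.28e-05) and 2.29-fold higher in β-catΔEx3 livers (log2FC 1.20 ± 0.16, adjusted p = 0.00043). With slide as a block it kept its calls, at 1.52 in β-catΔEx3:Myc livers (adjusted p = 0.0262) and 1.33 in β-catΔEx3 livers (adjusted p = 0.0373). Its other probe gave 1.47 in β-catΔEx3:Myc and 1.28 in β-catΔEx3 livers.

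The stalk itself is made of Rplp0 and the acidic proteins Rplp1 and Rplp2, which recruit the elongation factors. Rplp1 read 9.28, 9.60, 9.13 and 9.29 on the β-catΔEx3:Myc arrays, 9.34, 9.28 and 9.33 on the β-catΔEx3 arrays, and 8.70, 8.46, 8.39 and 8.56 on the WT arrays. All mutant arrays exceeded all WT arrays, and Rplp1 rose in both groups, with log2FC of 0.80 ± 0.14 in β-catΔEx3:Myc livers (adjusted p = 0.00119, limma) and 0.79 ± 0.15 in β-catΔEx3 livers (adjusted p = 0.00247). Rplp0 had 9.40, 9.93, 9.55 and 9.69 on the β-catΔEx3:Myc arrays, 9.62, 9.27 and 9.21 on the β-catΔEx3 arrays, and 9.06, 8.64, 8.61 and 8.82 on the WT arrays. Rplp2 had 9.08, 9.62, 9.27 and 9.38 on the β-catΔEx3:Myc arrays, 9.48, 9.05 and 9.26 on the β-catΔEx3 arrays, and 8.75, 8.56, 8.52 and 8.73 on the WT arrays. Neither gene had a mutant array within the WT range. Rplp0 rose by 0.86 ± 0.17 and Rplp2 by 0.70 ± 0.16 in β-catΔEx3:Myc livers (adjusted p = 0.00258 and 0.00476), and by 0.58 ± 0.18 and 0.62 ± 0.17 in β-catΔEx3 livers (adjusted p = 0.0295 and 0.0148). The β-catΔEx3 call of Rplp0 was lost when WT replicate 2 or 3, or replicate 1 of the β-catΔEx3 group, was left out (adjusted p = 0.0762 to 0.12), and that of Rplp2 without β-catΔEx3 replicate 1 (adjusted p = 0.0664).

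Rpl3 lies beside the centre where the peptide bond is made. Its log2 signal was 7.96, 8.34, 8.12 and 8.23 on the β-catΔEx3:Myc arrays, 8.23, 7.62 and 8.09 on the β-catΔEx3 arrays, and 7.25, 7.08, 7.11 and 7.16 on the WT arrays, without overlap between mutant and WT arrays. It was 2.02-fold and 1.78-fold higher than in WT livers in β-catΔEx3:Myc and β-catΔEx3 livers (log2FC 1.01 ± 0.16 and 0.83 ± 0.17, adjusted p = 0.000687 and 0.00379). Rpl5 and Rpl11 form a particle with 5S ribosomal RNA, and when free of the ribosome both bind Mdm2 and so relieve p53 from degradation. Rpl5 had 5.09, 5.60, 5.44 and 5.10 on the β-catΔEx3:Myc arrays, 5.26, 4.70 and 5.12 on the β-catΔEx3 arrays, and 4.54, 4.35, 4.25 and 4.35 on the WT arrays. Rpl11 had 9.39, 9.80, 9.47 and 9.74 on the β-catΔEx3:Myc arrays, 9.64, 9.30 and 9.38 on the β-catΔEx3 arrays, and 9.28, 9.05, 8.99 and 9.18 on the WT arrays. Both genes were above the WT range on all mutant arrays, Rpl11 by a narrow margin. Rpl5 rose by 0.94 ± 0.17 in β-catΔEx3:Myc livers (adjusted p = 0.00178) and by 0.65 ± 0.19 in β-catΔEx3 livers (adjusted p = 0.0196). The second call was lost without WT replicate 3 or either of β-catΔEx3 replicates 1 and 3 (adjusted p = 0.0513 to 0.0834). Rpl11 rose by 0.47 ± 0.15 in β-catΔEx3:Myc livers (adjusted p = 0.0248), a call lost without WT replicate 2 or 3 or β-catΔEx3:Myc replicate 2 or 4 (adjusted p = 0.0563 to 0.0713), and had 0.32 ± 0.16 in β-catΔEx3 livers (adjusted p = 0.143).

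Rpl13a, which in human macrophages leaves the ribosome to silence inflammatory messages, had 6.90, 7.28, 7.25 and 7.0 on the β-catΔEx3:Myc arrays, 7.18, 6.65 and 6.59 on the β-catΔEx3 arrays, and 6.56, 6.30, 6.19 and 6.35 on the WT arrays. It rose in β-catΔEx3:Myc livers (log2FC 0.76 ± 0.17, adjusted p = 0.00494) and was not called in β-catΔEx3 livers (0.46 ± 0.18, adjusted p = 0.0742), although the arrays did not overlap with WT. A dimmer second probe of Rpl13a gave 0.14 in β-catΔEx3:Myc and -0.18 in β-catΔEx3 livers. Rpl22, which is dispensable for most translation and has the paralogue Rpl22l1, had 7.72, 7.94, 7.45 and 7.86 on the β-catΔEx3:Myc arrays, 7.83, 7.26 and 7.72 on the β-catΔEx3 arrays, and 7.55, 7.19, 7.30 and 7.48 on the WT arrays. The groups overlapped and neither difference was called (0.36 ± 0.17 in β-catΔEx3:Myc livers, adjusted p = 0.121, and 0.22 ± 0.19 in β-catΔEx3 livers, adjusted p = 0.386). The second, dimmer Rpl22 probe gave larger changes, 1.01 in β-catΔEx3:Myc and 1.07 in β-catΔEx3 livers, each called when every probe was tested on its own (adjusted p = 0.00405 and 0.00569).

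The other large subunit genes without a call in β-catΔEx3:Myc livers were Rpl7, Rpl7a, Rpl10, Rpl21 and Rpl35a, with log2FC of 0.34 to 0.64. Rpl21 was a dim gene, with values of -0.70 to 0.15 on the β-catΔEx3:Myc arrays, -0.79 to -0.40 on the β-catΔEx3 arrays and -1.57 to -0.61 on the WT arrays, and the ranges overlapped. In β-catΔEx3 livers, Rpl4, Rpl8, Rpl28, Rpl34, Rpl36a and Rpl37a also had no call, with log2FC of 0.27 to 0.61. Between the largest and smallest changes lay, among others, Rpl17, Rpl23a, Rpl18, Rpl32, Rpl13 and Rpl10a, which rose by 0.91 to 0.99 in β-catΔEx3:Myc livers and by 0.68 to 0.82 in β-catΔEx3 livers.

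In the small subunit Rps7 had the largest fold. Rps7 is needed for the processing of small subunit ribosomal RNA and, like Rpl5 and Rpl11, can bind Mdm2. Its log2 signal was 7.49, 7.87, 7.75 and 7.34 on the β-catΔEx3:Myc arrays, 7.77, 7.16 and 7.61 on the β-catΔEx3 arrays, and 6.52, 6.22, 6.22 and 6.28 on the WT arrays. All mutant arrays were above all WT arrays. The fold was 2.47 in β-catΔEx3:Myc livers (log2FC 1.30 ± 0.18, adjusted p = 0.000317) and 2.30 in β-catΔEx3 livers (log2FC 1.20 ± 0.19, adjusted p = 0.000999). With slide as a block the values were 1.22 in β-catΔEx3:Myc and 1.17 in β-catΔEx3 livers and the calls ended (adjusted p = 0.0762 and 0.0855). Rps7 had a single probe.

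Rps18 and Rps13 contact the other subunit, and Rps28 lies near the channel through which the message leaves. Rps18 had 8.16, 8.50, 8.30 and 8.16 on the β-catΔEx3:Myc arrays, 8.12, 7.94 and 7.63 on the β-catΔEx3 arrays, and 7.22, 6.93, 7.03 and 7.12 on the WT arrays. The 3 groups did not overlap with each other. Rps18 was 2.31-fold higher in β-catΔEx3:Myc livers (log2FC 1.20 ± 0.15, adjusted p = 0.000195) and 1.77-fold higher in β-catΔEx3 livers (0.82 ± 0.16, adjusted p = 0.00306). Rps13 had 8.61, 8.38, 8.45 and 8.51 on the β-catΔEx3:Myc arrays, 8.20, 8.46 and 8.43 on the β-catΔEx3 arrays, and 7.48, 7.26, 7.30 and 7.73 on the WT arrays. Rps28 had 8.98, 9.40, 9.01 and 9.10 on the β-catΔEx3:Myc arrays, 9.24, 8.78 and 9.07 on the β-catΔEx3 arrays, and 8.24, 8.03, 8.0 and 8.19 on the WT arrays. Neither gene overlapped with WT in any mutant array. Rps13 rose by 1.04 ± 0.14 and 0.92 ± 0.15 (adjusted p = 0.000322 and 0.00131), and Rps28 by 1.00 ± 0.15 and 0.92 ± 0.16 (adjusted p = 0.000582 and 0.00192), in β-catΔEx3:Myc and β-catΔEx3 livers in that order.

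Rpsa, also known as the laminin receptor, had 8.85, 9.30, 8.91 and 8.84 on the β-catΔEx3:Myc arrays, 9.09, 8.86 and 8.92 on the β-catΔEx3 arrays, and 8.10, 7.89, 7.90 and 8.16 on the WT arrays. It rose by almost the same amount in both groups, 0.96 ± 0.15 in β-catΔEx3:Myc livers (adjusted p = 0.000614) and 0.94 ± 0.16 in β-catΔEx3 livers (adjusted p = 0.00136). Rps19, whose human counterpart is often mutated in Diamond-Blackfan anaemia, had 6.85, 7.14, 6.99 and 6.76 on the β-catΔEx3:Myc arrays, 6.97, 6.5 and 6.57 on the β-catΔEx3 arrays, and 6.17, 6.02, 5.93 and 5.80 on the WT arrays. Here too no mutant array reached into the WT range, and the log2FC was 0.95 ± 0.16 in β-catΔEx3:Myc livers (adjusted p = 0.000897) and 0.70 ± 0.17 in β-catΔEx3 livers (adjusted p = 0.00843). Rps27a, made as a fusion with ubiquitin, had 9.12, 9.48, 8.99 and 9.39 on the β-catΔEx3:Myc arrays, 9.41, 8.82 and 9.20 on the β-catΔEx3 arrays, and 8.89, 8.70, 8.75 and 8.76 on the WT arrays. β-catΔEx3 replicate 2 fell within the WT range. Its change of 0.47 ± 0.17 in β-catΔEx3:Myc livers just passed the threshold (adjusted p = 0.0422), and did not when any of 8 arrays was left out (adjusted p = 0.0512 to 0.113). These were all 4 WT arrays, β-catΔEx3:Myc replicates 1, 2 and 4 and β-catΔEx3 replicate 3. The 0.37 ± 0.18 in β-catΔEx3 livers was not called (adjusted p = 0.131), but was without β-catΔEx3 replicate 2, at 0.53 (adjusted p = 0.0417). When every probe was tested on its own, a dimmer Rps27a probe gave 0.59 in β-catΔEx3:Myc livers (limma adjusted p = 0.0122) and 0.42 in β-catΔEx3 livers (adjusted p = 0.076). The dimmest, above background on 5 arrays only, gave 0.99 and 1.38 in that order (adjusted p = 0.0256 and 0.00911).

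Rps3, at the entry of the message channel, had 5.81, 6.27, 5.68 and 6.07 on the β-catΔEx3:Myc arrays, 5.93, 5.77 and 5.76 on the β-catΔEx3 arrays, and 5.71, 5.54, 5.44 and 5.46 on the WT arrays. β-catΔEx3:Myc replicate 3 overlapped with WT replicate 1. The change of 0.42 ± 0.15 in β-catΔEx3:Myc livers was called at an adjusted p of 0.0472 and lost without any of 9 arrays (adjusted p = 0.0535 to 0.128), all except WT replicate 1 and β-catΔEx3:Myc replicate 3. In β-catΔEx3 livers Rps3 had 0.28 ± 0.17 (adjusted p = 0.205). A dimmer second Rps3 probe gave 0.65 in β-catΔEx3:Myc and 0.55 in β-catΔEx3 livers. Each was called when every probe was tested on its own (limma adjusted p = 0.00672 and 0.0253).

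Rps6, the small subunit protein phosphorylated by S6 kinases downstream of mTORC1, differed in 1 array. It had 8.21, 8.72, 8.35 and 8.30 on the β-catΔEx3:Myc arrays, 8.48, 7.02 and 8.14 on the β-catΔEx3 arrays, and 7.72, 7.46, 7.45 and 7.64 on the WT arrays. β-catΔEx3 replicate 2 was below every other array on the brightest probe, and also on the next brightest, with 6.14 there against 7.30 and 7.63 on the other β-catΔEx3 arrays. On the dimmest of the 3 probes that array had 3.03, within the WT range. In β-catΔEx3 livers the difference from WT was 0.31 ± 0.30 (adjusted p = 0.441) with that array and 0.74 (adjusted p = 0.0148) without it. In β-catΔEx3:Myc livers Rps6 rose by 0.83 ± 0.27 (adjusted p = 0.0327), a call lost without any 1 of the WT arrays or of β-catΔEx3:Myc replicates 2 and 3 (adjusted p = 0.0502 to 0.0874).

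Rps2, near the entry of the message channel and methylated by Prmt3, was the only gene with a negative log2FC in a comparison with WT with upper quartile scaling, all arrays and no block. Its brighter probe had 7.09, 7.43, 8.43 and 8.86 on the β-catΔEx3:Myc arrays, 7.37, 7.38 and 6.83 on the β-catΔEx3 arrays, and 8.41, 7.52, 8.17 and 7.77 on the WT arrays. β-catΔEx3 was below WT on every array, and β-catΔEx3:Myc spanned the WT range. Neither difference was called, at -0.02 ± 0.38 (adjusted p = 0.978) in β-catΔEx3:Myc and -0.77 ± 0.41 (adjusted p = 0.161) in β-catΔEx3 livers. The value in β-catΔEx3:Myc livers turned positive with slide as a block, at 0.37, with normexp background correction, with the mean over both probes, and without WT replicate 1 or 3 or β-catΔEx3:Myc replicate 1 or 2. Across arrays this probe had a correlation of -0.14 with the mean of the other members, the lowest of all. Its other probe had 7.58, 8.0, 7.81 and 7.82 on the β-catΔEx3:Myc arrays, 7.78, 7.53 and 7.21 on the β-catΔEx3 arrays, and 7.39, 7.23, 7.18 and 7.20 on the WT arrays. That probe was above WT in all β-catΔEx3:Myc arrays and rose there when every probe was tested on its own (0.55 ± 0.16, adjusted p = 0.0162). In β-catΔEx3 livers it had 0.25 ± 0.17 (adjusted p = 0.266). The files do not place the 2 probes on the Rps2 transcript, and related copies of ribosomal protein genes elsewhere in the genome could share signal with any probe described here.

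**Figure D3:**
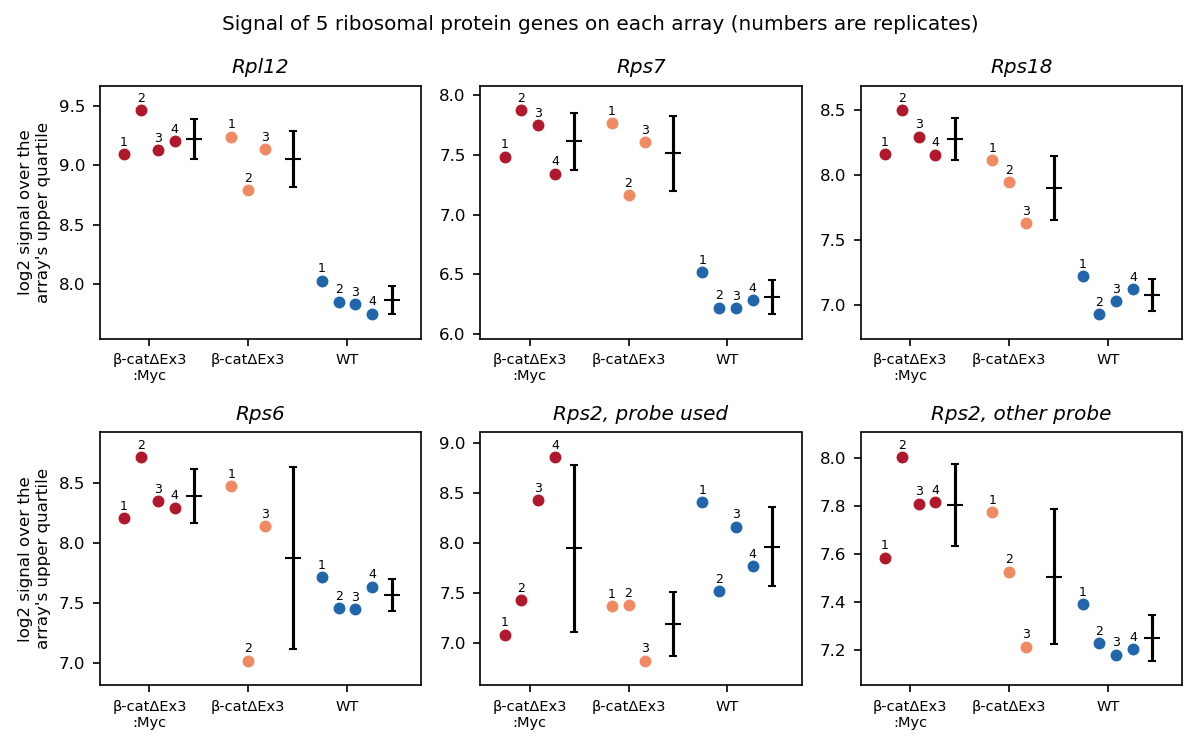
Log2 signal over the array's upper quartile (y axis, not starting at 0) of 5 ribosomal protein genes in β-catΔEx3:Myc (dark red), β-catΔEx3 (orange) and WT (blue) livers, numbered by replicate, with mean and SD in black (n = 4, 3 and 4). Rpl12, Rps7 and Rps18 separate mutant from WT arrays, Rps6 has 1 low β-catΔEx3 array, and the 2 Rps2 probes give different patterns.

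The design had 160 probes for the 75 genes, and 157 could be used. Tested one by one, 136 of 157 probes were higher in β-catΔEx3:Myc livers and 97 of 157 in β-catΔEx3 livers, beside 24.3% and 20.7% of all usable probes, and none was lower. Of the 49 genes with several usable probes, only Rps2 and Rps24 had probes of both signs in β-catΔEx3:Myc livers. In β-catΔEx3 livers Rpl6, Rpl13a and Rpl14 did as well. The brightest Rps24 probe gave 0.58 in β-catΔEx3:Myc and 0.42 in β-catΔEx3 livers, and the dimmest -0.47 in β-catΔEx3:Myc and -0.29 in β-catΔEx3 livers.

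β-catΔEx3:Myc and β-catΔEx3 livers were then compared with each other to ask whether added Myc came with more ribosomal protein transcript. None of the 75 genes was called in limma, beside 0.13% of all items called higher and 0.207% called lower. Rps18 and Rps21, 2 of the 75 genes, had an unadjusted limma p below 0.05, beside 2290 of all 22264 items. All 75 log2FC were above 0, with a median of 0.14 (1.1-fold), and the median of all items was 0.00. The direction depended on single arrays: without β-catΔEx3 replicate 2 it held for 53 of 75 genes with a median of 0.05, and without β-catΔEx3:Myc replicate 2 for 58 of 75 with a median of 0.07. The median was 0.18 within slide 2 and 0.15 within slide 4.

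The 3 largest differences were those of Rps2 (0.76 ± 0.41, adjusted p = 0.581), Rps6 (0.52 ± 0.30, adjusted p = 0.619) and Rps21 (0.42 ± 0.15, adjusted p = 0.351). Rps21, a small subunit protein whose probe was dim here, had 0.06, 0.14, 0.30 and 0.14 on the β-catΔEx3:Myc arrays, -0.42, -0.39 and 0.04 on the β-catΔEx3 arrays, and -0.81, -0.88, -0.71 and -0.62 on the WT arrays. The groups did not overlap for Rps21 and Rps18, 2 of 75 genes, beside 3.59% of all items. On the dimmer Rps18 probe the mutant groups did overlap. Their difference there was 0.19 (limma adjusted p = 0.786 when every probe was tested on its own). Rpl12 differed by 0.17 with a 95% interval of -0.19 to 0.52, and Rpsa by 0.02 with an interval of -0.33 to 0.37. For Rpl12 and Rpsa, differences of the size seen against WT lie outside these intervals and small ones do not. This did not hold for every gene. The intervals of Rpl11 (-0.20 to 0.51) and Rps6 (-0.14 to 1.17) include their differences from WT in both mutant groups.

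Myc itself, read by 1 probe, had a log2 signal of 4.65, 3.13, 2.55 and 4.98 on the β-catΔEx3:Myc arrays, 2.44, 1.39 and 2.08 on the β-catΔEx3 arrays, and 2.30, -0.12, 0.22 and -0.52 on the WT arrays. Among β-catΔEx3:Myc arrays replicate 4 had the highest Myc signal and replicate 2 the highest ribosomal protein median. On β-catΔEx3 arrays both values were highest for replicate 1 and lowest for replicate 2. Among WT arrays both were highest for replicate 1. A link between Myc signal and ribosomal protein median was not tested.

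The ribosomal protein genes gave some of the brightest signals of the arrays, and bright items as a whole were higher in the mutants. The items were divided by mean signal into 10 classes of equal size, and 71 of the 75 genes fell into the brightest class. The other 2156 items of that class had a median log2FC of 0.44 in β-catΔEx3:Myc and 0.42 in β-catΔEx3 livers, with 48.9% and 43.6% called higher. The 71 genes had medians of 0.72 in β-catΔEx3:Myc and 0.57 in β-catΔEx3 livers. In class 5, which held the dim members Rpl21 and Rps21, the others had 0.05 in β-catΔEx3:Myc and 0.02 in β-catΔEx3 livers, and the pair 0.77 in β-catΔEx3:Myc and 0.45 in β-catΔEx3 livers. Quantile normalization, which forces 1 distribution on all arrays, lowered the median of the other bright items to 0.16 in β-catΔEx3:Myc and 0.14 in β-catΔEx3 livers. It lowered that of all 75 genes to 0.37 in β-catΔEx3:Myc livers, with 38 genes called higher, and to 0.25 in β-catΔEx3 livers, with 18, all of them among those called with upper quartile scaling. With quantile normalization 21.5% of all items were called higher in β-catΔEx3:Myc and 18.4% in β-catΔEx3 livers, so that the β-catΔEx3 count of 18 of 75 lay near the share of all items. The part of this brightness trend in the ribosomal protein values was not tested.

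**Figure D4:**
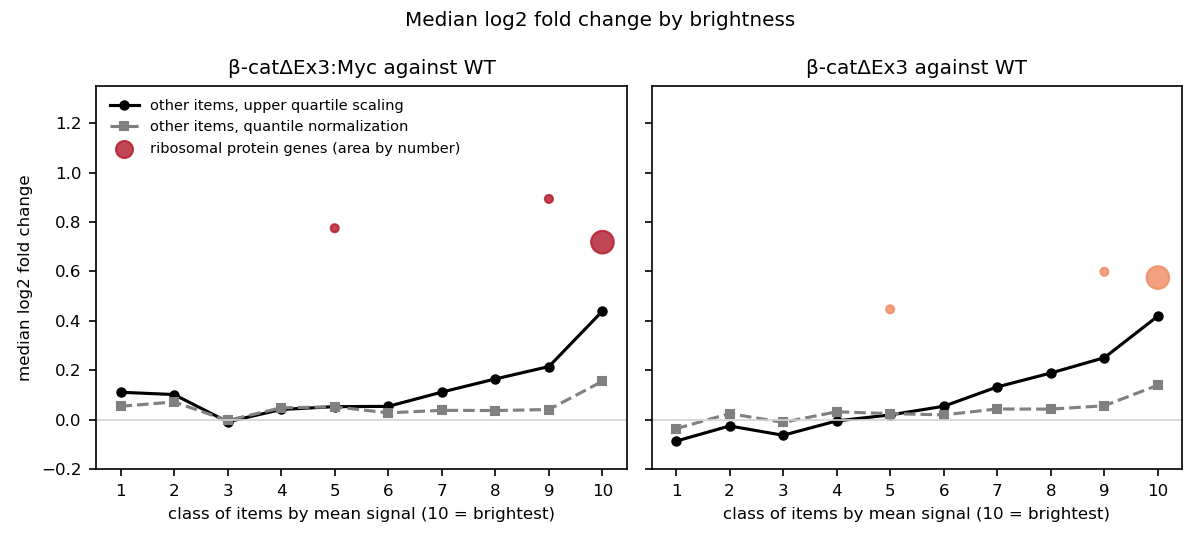
Median log2 fold change (y axis) of other items in each of 10 classes by mean signal (x axis), with upper quartile scaling (black) and quantile normalization (grey), and of ribosomal protein genes with upper quartile scaling (coloured, area by number of genes), for β-catΔEx3:Myc (left) and β-catΔEx3 (right) against WT livers. The coloured points lie above the black line, which itself climbs to 0.44 and 0.42 in the brightest class.

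Upper quartile scaling left the median of all items at 0.13 above WT in β-catΔEx3:Myc and 0.10 in β-catΔEx3 livers. Relative to that, the median of the ribosomal protein genes was 0.59 in β-catΔEx3:Myc and 0.47 in β-catΔEx3 livers, and with quantile normalization it was 0.32 in β-catΔEx3:Myc and 0.21 in β-catΔEx3 livers. In the authors' deposited table of normalized values 49 of the 75 genes were called higher in β-catΔEx3:Myc and 26 in β-catΔEx3 livers, beside 22.6% and 19.2% of all items, whose medians there were 0.08 and 0.06. With the 75th percentile taken over probes detected on all arrays, which moved the split of all calls in β-catΔEx3 livers to 3414 higher and 4655 lower, beside 4850 higher and 3438 lower, 59 genes were called higher in β-catΔEx3:Myc and 27 in β-catΔEx3 livers, beside 19.9% and 15.3% of all items. No gene was called lower under any setting run.

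**Figure D5:**
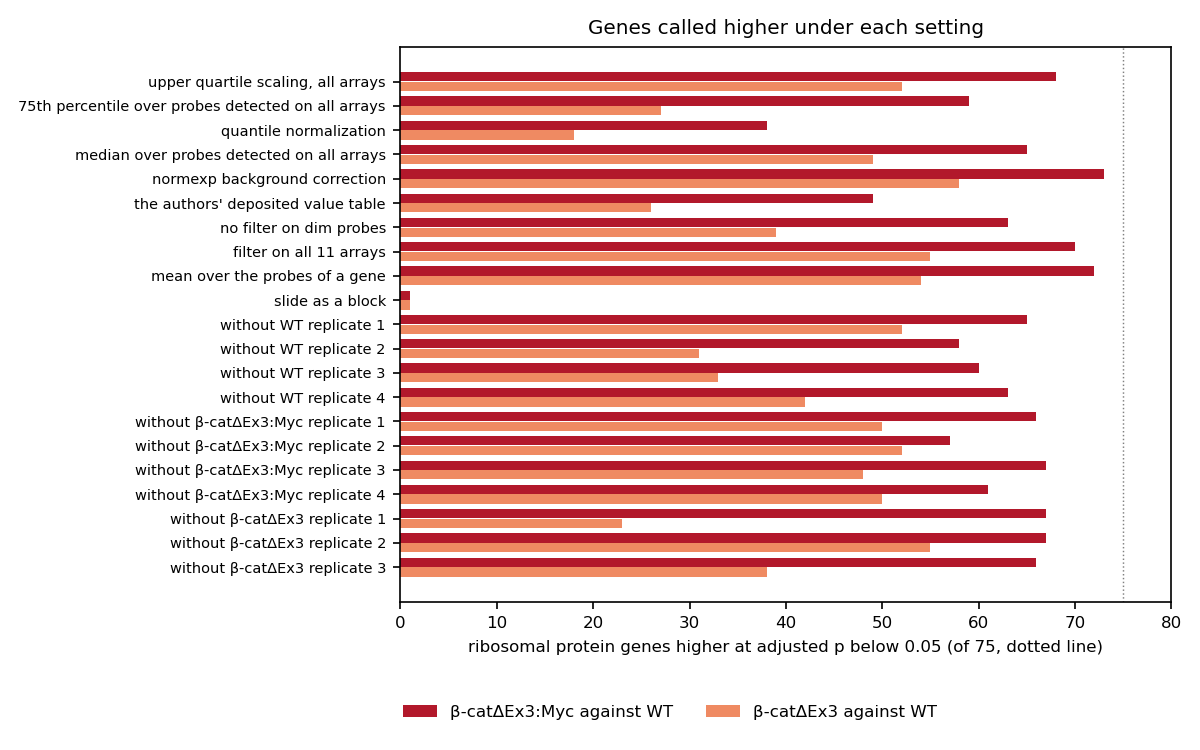
Number of the 75 ribosomal protein genes called higher (x axis) in β-catΔEx3:Myc (dark red) and β-catΔEx3 (orange) against WT livers under each setting. Counts run from 57 to 73 and from 23 to 58 apart from quantile normalization (38 and 18), slide as a block (1 and 1) and the deposited table (49 and 26).

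Other parts of the translation apparatus were read beside the ribosomal proteins, from lists of known genes. Of the genes outside the naming pattern that encode ribosomal proteins, fusions or close paralogues, 4 of 8 measured were higher in β-catΔEx3:Myc and 2 of 8 in β-catΔEx3 livers. The counts of this and the following lists stand beside 24.9% of all items called higher in β-catΔEx3:Myc and 21.8% in β-catΔEx3 livers, and 2 of 8 is near the second share. Fau, a ubiquitin-like fusion with Rps30, rose by 0.70 ± 0.18 in β-catΔEx3:Myc livers (adjusted p = 0.00894) and by 0.62 ± 0.19 in β-catΔEx3 livers (adjusted p = 0.0261). Mitochondrial ribosomal proteins, which build a separate ribosome, had 42 of 77 genes higher and 2 lower in β-catΔEx3:Myc livers and 39 higher and none lower in β-catΔEx3 livers, with medians of 0.46 and 0.45. Mrpl54 rose the most of them in both (1.45 and 1.41), and Mrpl39 and Mrpl49 fell in β-catΔEx3:Myc livers. Among ribosome biogenesis genes 19 of 30 were higher and 1 was lower in each group, with medians of 0.63 and 0.73.

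Translation initiation factors were higher for 19 of 35 genes in β-catΔEx3:Myc livers (median 0.49) and 18 of 35 in β-catΔEx3 livers (median 0.55). Eif6, which keeps the large subunit from joining too early, was 2.84-fold higher in β-catΔEx3:Myc and 3.48-fold higher in β-catΔEx3 livers (log2FC 1.51 ± 0.18 and 1.80 ± 0.20, adjusted p = 0.000163 and 0.000134). Elongation and termination factors had 8 of 13 higher in β-catΔEx3:Myc livers, and 7 of 13 higher and 1 lower in β-catΔEx3 livers. Eef1b2 rose in β-catΔEx3:Myc livers (0.91 ± 0.18, adjusted p = 0.00244), and Eef2k, the kinase that holds back elongation factor 2, fell in β-catΔEx3 livers (-1.47 ± 0.43, adjusted p = 0.0215). Of other TOP messages 6 of 11 were higher and 1 (Vim) was lower in β-catΔEx3:Myc livers, and 4 of 11 were higher in β-catΔEx3 livers.

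The list of mTORC1 and TOP regulators had 5 of 17 higher and 1 lower in β-catΔEx3:Myc, and 6 of 17 higher and 1 lower in β-catΔEx3 livers, not far from the shares of all items, and 6 of the 17 had a log2FC below 0 in each group. Eif4ebp1 and Eif4ebp3, which encode proteins that block cap-dependent initiation until mTORC1 phosphorylates them, rose by 1.46 ± 0.32 and 4.00 ± 0.56 in β-catΔEx3:Myc livers (adjusted p = 0.00442 and 0.000385). In β-catΔEx3 livers they rose by 1.90 ± 0.35 and 3.05 ± 0.61 (adjusted p = 0.00212 and 0.00337). Deptor, an inhibitor of mTOR, fell by 0.79 ± 0.15 in β-catΔEx3:Myc livers and by 1.16 ± 0.16 in β-catΔEx3 livers (adjusted p = 0.002 and 0.000537). In the short list around Mdm2 and p53, where free Rpl5 and Rpl11 act, 4 of 9 genes were higher in β-catΔEx3:Myc and 3 of 9 in β-catΔEx3 livers. Mdm2 rose by 0.70 in β-catΔEx3:Myc and 0.61 in β-catΔEx3 livers (adjusted p = 0.00395 and 0.0139).

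Several marker lists of liver cell types differed between the groups as well. Their counts stand beside 24.9% of all items called higher and 17.3% called lower in β-catΔEx3:Myc livers. In β-catΔEx3 livers these shares were 21.8% and 15.4%. All 10 hepatocyte markers were measured and present in every group, with 1 higher and 5 lower in β-catΔEx3:Myc and 5 lower in β-catΔEx3 livers. Their summed signal, on the log2 scale, was 12.50 to 13.06 on β-catΔEx3:Myc arrays, 12.78 to 12.99 on β-catΔEx3 arrays and 13.22 to 13.57 on WT arrays. All 9 measured macrophage markers were lower in both groups, with summed signals of 4.35 to 6.23 on β-catΔEx3:Myc arrays, 4.55 to 6.10 on β-catΔEx3 arrays and 8.07 to 8.71 on WT arrays. Of 9 lymphocyte markers 7 were lower in each group and 1 was higher in β-catΔEx3:Myc livers (2.95 to 3.54 on β-catΔEx3:Myc arrays, 3.02 to 3.23 on β-catΔEx3 arrays and 3.39 to 4.51 on WT arrays), with Ms4a1 above background on no mutant array. Of 6 erythroid markers 1 was higher and 2 were lower in β-catΔEx3:Myc livers and 2 were lower in β-catΔEx3 livers (5.97 to 6.52 on β-catΔEx3:Myc arrays, 4.99 to 5.37 on β-catΔEx3 arrays and 7.24 to 8.79 on WT arrays). The macrophage, lymphocyte and erythroid sums were below the WT range on the mutant arrays, apart from lymphocytes in β-catΔEx3:Myc livers, where the ranges overlapped.

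Endothelial markers were lower for 8 of 10 genes in β-catΔEx3:Myc and 6 of 10 in β-catΔEx3 livers (5.07 to 5.74 on β-catΔEx3:Myc arrays, 6.04 to 6.44 on β-catΔEx3 arrays and 7.10 to 7.33 on WT arrays). Stellate cell and fibroblast markers were lower for 7 of 10 genes in β-catΔEx3:Myc and 3 of 10 in β-catΔEx3 livers (5.17 to 6.10 on β-catΔEx3:Myc arrays, 6.57 to 6.63 on β-catΔEx3 arrays and 6.75 to 7.60 on WT arrays). Neutrophil markers were higher for 2 of 8 genes in β-catΔEx3:Myc and 1 of 8 in β-catΔEx3 livers (3.35 to 6.61 on β-catΔEx3:Myc arrays, 2.72 to 4.02 on β-catΔEx3 arrays and 3.17 to 3.85 on WT arrays). All 8 had a log2FC above 0 in β-catΔEx3:Myc livers (median 1.83), and 7 of 8 had one below 0 in β-catΔEx3 livers (median -1.62). Of 6 biliary markers 1 was lower in β-catΔEx3:Myc livers and 1 was higher in β-catΔEx3 livers, and 1 of 4 pancreatic acinar markers was lower in each group. Proliferation markers were higher for 1 of 9 genes in β-catΔEx3:Myc and 2 of 9 in β-catΔEx3 livers (4.72 to 6.21 on β-catΔEx3:Myc arrays, 4.88 to 6.07 on β-catΔEx3 arrays and 4.50 to 5.40 on WT arrays), with overlapping sums. With slide as a block none of the macrophage or lymphocyte markers stayed called in either group. The neutrophil, biliary and proliferation counts were near or below the shares of all items called in the same direction. The part of the marker lists in the ribosomal protein result was not tested.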

How the data were processed

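Agilent Feature Extraction 10.7.1.1 produced the deposited scanner files, whose processed signal intensity is linear and background-subtracted, per the file headers. A table of log2 values was deposited by the authors too, each array with a median of 4.51, which ranks probes as the scanner files do. The scanner values were used here. Control spots and outlier spots (137 to 209 an array) were left out, log2 values of the remaining spots were averaged for 55681 probes, and each array's 75th percentile was subtracted. That percentile lay at 193 to 304 intensity units, 47.8% to 52.4% of probes passed the well-above-background test, and no spot reached saturation. The number of arrays limits the precision. Probes that passed that test on 3 or more arrays and were measured on all 11 were kept (29660), and the brightest probe stood for a gene, 1 item each. Symbols came from RefSeq accessions (26582 probes matched). Start regions came from RefSeq. Group means were fitted to all 11 arrays with limma 3.58.1 in R 4.3.3 (data.table version 1.17.8, with 8 residual and 2.52 prior degrees of freedom), with 2-sided tests adjusted over all 22264 items at 0.05, written as log2FC ± standard error. Fold changes, calls and gene lists (18, with 226 entries) describe these mice. The p-values set each group difference against the spread between mice within the groups. The fit was tested on simulated data. Alternatives were other scalings, background corrections, filters and probe rules, slide as a block and leaving out each array. Testing every probe was added later. The normexp correction used median foreground signals. Members and lists were chosen with earlier results of these data known. Values in every array are given for the 5 largest changes among called genes without overlap, or the 3 largest where under 3 were called. They are also given for genes with a role of their own. Genes whose probes differ in sign against WT are named. Rps23 was not analysed here, and some members enter the counts but are not reported singly.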

Additional observations from a re-analysis of the deposited data

Results flagged for a closer look

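In β-catΔEx3:Myc livers, replicate 2 stood apart for Rpsa, with a log2 signal of 9.30 where the other arrays of the group had 8.84 to 8.91. Its gap to the nearest array exceeded Dixon's 95% critical value as a share of the group's range. Of 44 series of 4 arrays examined, this was the only one that did, and chance gives about 1 in 20. The same array had the highest median over all ribosomal protein genes.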

How the results depend on the processing

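For the ribosomal protein genes named with values, 940 comparisons with an alternative were made: 851 stayed on the same side of the threshold, 83 lost a call and 6 gained one. Of the lost calls, 24 were lost with slide as a block. None reversed a called direction, but some results without a call changed sign and are counted among the 851. In β-catΔEx3 livers 27 of the 75 genes were called when the 75th percentile was taken over detected probes only, 18 with quantile normalization, 26 in the deposited table and 1 with slide as a block. In β-catΔEx3:Myc livers 38 were called with quantile normalization and 1 with slide as a block. Of all items, 15.3% were called higher in β-catΔEx3 livers with the percentile over detected probes and 19.2% in the deposited table. Quantile normalization gave 18.4% in β-catΔEx3 and 21.5% in β-catΔEx3:Myc livers, so that 18 of 75 lay near the share of all items. With quantile normalization the medians of the large and small subunit genes were 0.37 and 0.40 in β-catΔEx3:Myc livers and 0.25 and 0.25 in β-catΔEx3 livers. In the deposited table they were 0.46 and 0.47, and 0.34 and 0.33. For all items, slide as a block left 1930 calls in β-catΔEx3:Myc and 1818 in β-catΔEx3 livers, and 184 between the mutant groups, where the percentile over detected probes gave 35 and no filter on dim probes 42. Calls over the 8 translation lists were 13 and 11 with the block, and 62 in β-catΔEx3 livers with the percentile over detected probes. The 8 lists held 8, 35, 13, 11, 17, 30, 9 and 77 measured genes, and all items numbered 22264. With the percentile over detected probes, 3414 of all items were called higher and 4655 lower in β-catΔEx3 livers. In each of these settings a smaller share of the list genes than of all items was called. Why the counts moved between settings was not tested, except that the block leaves 1 WT array in use. When single arrays were left out, 23 to 55 of the 75 genes were called in β-catΔEx3 livers, beside 15.3% to 22% of all items called higher. In β-catΔEx3:Myc livers 57 to 67 were called, beside 19.8% to 25.9% of all items. With single arrays left out, the translation lists gave 53 to 100 calls in β-catΔEx3 livers, beside 6043 to 8407 calls over all items. Across the same omissions the mutant groups differed in 10 to 181 items. No paired analysis was possible because the labels give no animal, litter or replicate number shared between groups. Quantile normalization turned the log2FC of Rpl7, Rpl7a, Rpl8, Rpl22, Rpl35a and Rps6 below 0 in β-catΔEx3 livers, and of Rpl7, Rpl22 and Rpl35a in β-catΔEx3:Myc livers, none of them called. Rpl21 and Rps21 were the dimmest members, closest to background.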
